A study of Mus musculus with 4 samples.

Results

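The genes described here are 36 endothelial and angiogenic genes, made up of 30 markers of vessels and 6 angiogenic ligands. They were taken by symbol from the 28611 rows of the deposited table, in which each of them has its own row. Blood vessels are lined by endothelial cells, which hold together through junction proteins and read signals from the surrounding tissue through receptors for vascular endothelial growth factors (VEGFs), angiopoietins, BMPs and peptides such as apelin and adrenomedullin. In the ovary, the granulosa cells (GCs) of a follicle have no vessels among them, and the capillaries that feed the follicle run in the theca layer and the stroma outside its basement membrane. VEGFA made by GCs and theca cells is known to draw these capillaries toward the growing follicle, while the angiopoietins act on the stability of the vessel wall.

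RNA was sequenced from 2 Hdac3flox/flox and 2 Hdac3cKO mice of C57BL/6 background, 24 days of age. Both groups carried the floxed Hdac3 allele on both chromosomes, and both received tamoxifen (20 mg per kg of body weight, i.p.) at 18 days of age. Hdac3cKO mice carried Foxl2-CreERT2 in addition, a Cre recombinase that tamoxifen activates and that the Foxl2 gene directs to GCs. The controls had no Cre, so an effect of Cre with tamoxifen and the loss of Hdac3 cannot be told apart. The Cre is not directed to endothelium. The paper describes the deletion as incomplete. The labels name GCs, whereas the protocol states that whole ovaries were frozen for RNA, and theca, stromal, endothelial and oocyte genes were all read in every library, with Cyp17a1, the theca enzyme of androgen synthesis, at 527 and 472 RPKM in Hdac3flox/flox and 383 and 337 RPKM in Hdac3cKO. In such a mixture, fewer endothelial cells, less RNA per endothelial cell and more RNA from other cells cannot be told apart.

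The deposited values are RPKM, a read count divided by gene length and library total. The 4 libraries behind it held from 17621129 to 18452073 reads. Hdac3, the targeted gene, was at 24.4 RPKM in each control and at 19.4 and 19.2 RPKM in Hdac3cKO (log2 fold change −0.34, adjusted p = 0.00935 from limma). Levels were compared as log2(RPKM + 0.1) with limma over 15528 genes that reached 0.5 RPKM in at least 2 libraries, and a gene was called when its two-sided Benjamini-Hochberg adjusted p was under 0.05. Of these genes 11.0% were called lower and 7.68% higher in Hdac3cKO, and their median log2 fold change was −0.04. This split depends on the scaling, with 1711 lower and 1193 higher calls in these values, 1382 and 1526 after median-of-ratios scaling, and 1201 and 1968 once GC content and exon length had been regressed out of each library. Neither scaling moved the median of all genes by more than 0.1 on the log2 scale.

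About as many vessel markers were called lower in Hdac3cKO as were not called, and the called ligands moved in both directions. Of the 30 vessel markers, 28 were tested, of which 15 were called lower and none was called higher by limma, against 11.0% called lower among all tested genes. No vessel marker was higher at an unadjusted p under 0.05 (0 of 28), and limma voom on recovered reads called 20 lower and 0 higher. Over all 15526 genes of the voom fit, 2783 were called lower and 1866 higher. In the main fit the log2 fold changes of the 28 vessel markers ran from −0.80 to 0.21 with a median of −0.35. Of these 28 estimates 27 were below 0, against 56.2% of all tested genes. Of the 6 ligands, Angpt2, Vegfc and Angpt1 fell and Vegfa rose. All 34 tested members were above 0.5 RPKM in every library, so none of them passed the filter through 1 genotype alone. Vwf was below 0.5 RPKM in every library and Prox1 in all but Hdac3cKO replicate 2, so neither was tested. The calls need both Hdac3cKO libraries. Without Hdac3cKO replicate 1 or Hdac3cKO replicate 2 the called members lost their calls, while all 19 kept their direction. None of the log2 fold changes of these 19 moved by more than 0.12. Calls were also lost without a control library. Cd93, Flt4, Sox7, Sox18, Egfl7, Vegfa and Angpt1 were called neither without Hdac3flox/flox replicate 1 nor without Hdac3flox/flox replicate 2. All 19 called members kept their direction in both cases. The largest shift of a log2 fold change among these 19 was then 0.08, for Angpt2. Some members that were not called moved more when a library was left out, such as Lyve1 (−0.059 to 0.49) and Nos3 (−0.26 to 0.11).

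**Figure D1:**
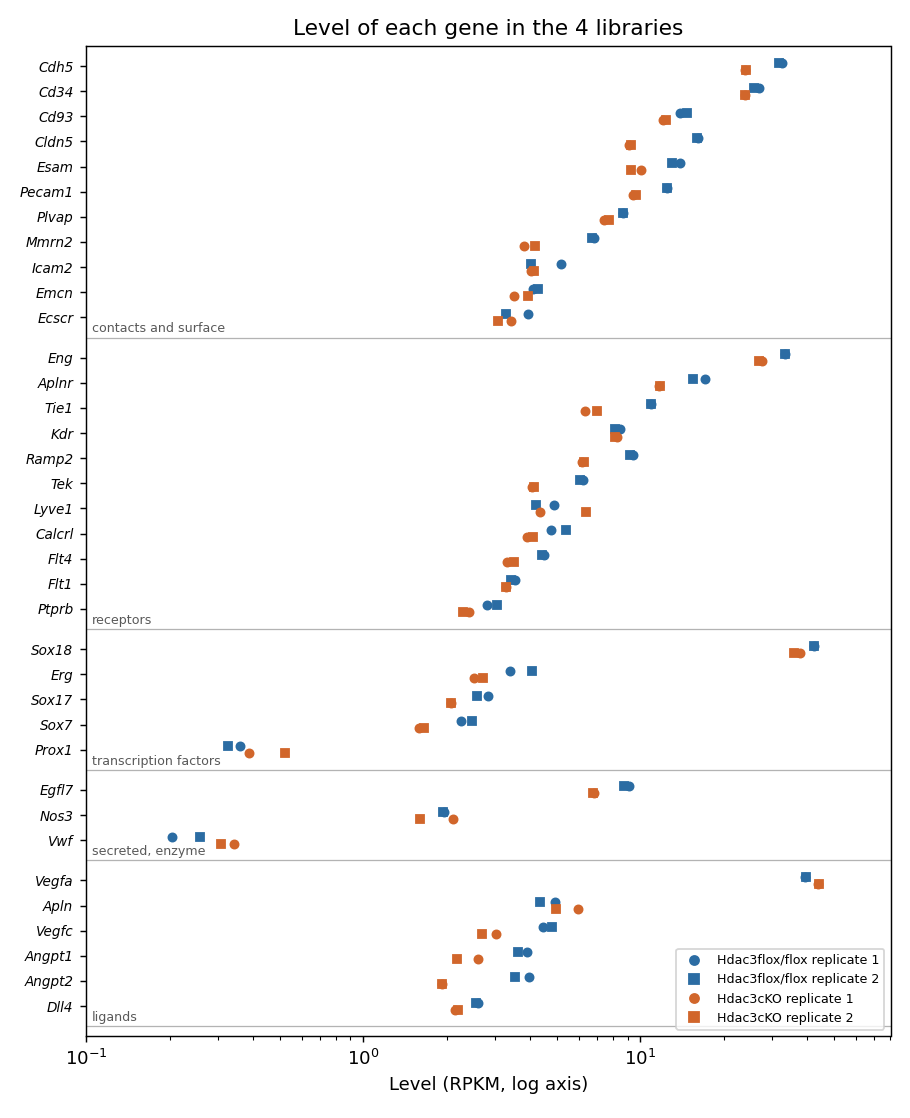
Level of each of the 36 genes (RPKM, logarithmic axis) in the 4 libraries, grouped by role and ordered by mean level. Blue points are Hdac3flox/flox, orange points Hdac3cKO, circles replicate 1 and squares replicate 2. The orange points lie to the left of the blue points for most vessel markers, such as Cdh5 and Tie1, and to the right for Vegfa.

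**Figure D2:**
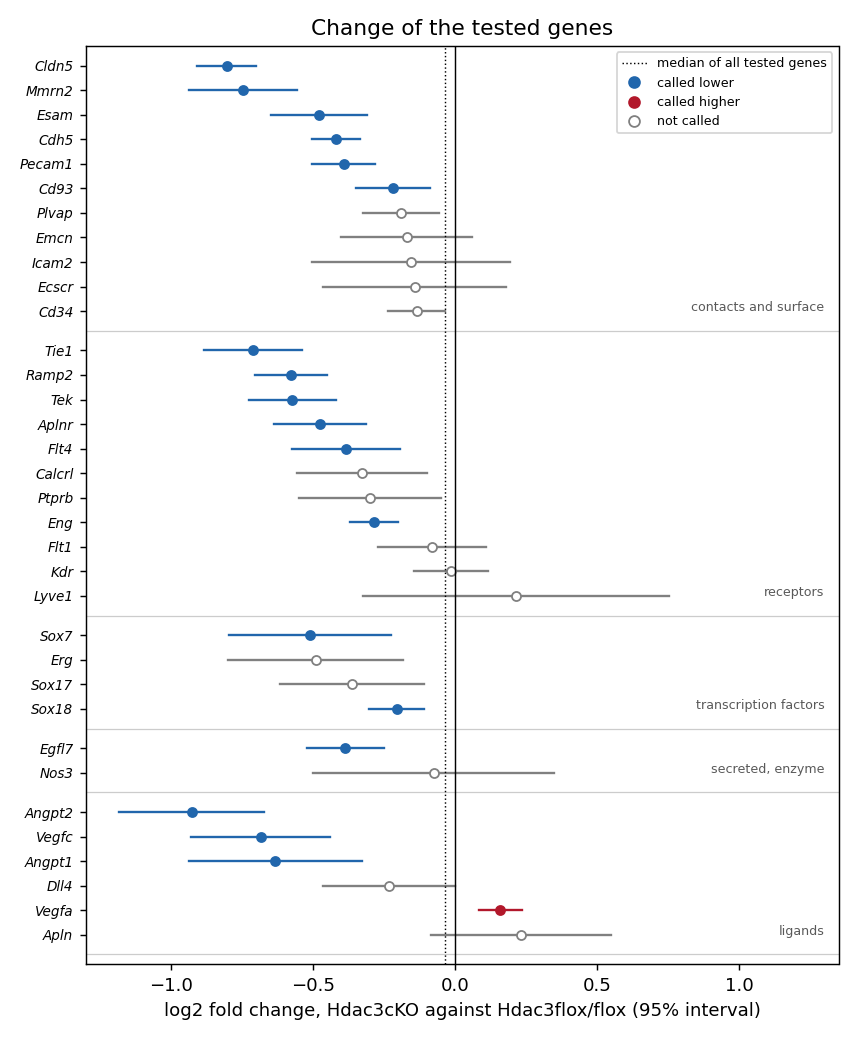
Log2 fold change of the 34 tested genes in Hdac3cKO against Hdac3flox/flox on log2(RPKM + 0.1), with the 95% interval from limma as a line. Filled points passed an adjusted p under 0.05, open points did not, and the dotted line is the median of all 15528 tested genes at −0.04. The lowest value is that of Angpt2 at −0.93, and Kdr lies at −0.02.

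Among the genes of cell contacts and the endothelial surface, 6 of 11 were called lower and none higher, against 11.0% and 7.68% of all tested genes. Cdh5, which encodes VE-cadherin, the adhesion molecule of endothelial adherens junctions, was read at 32.4 and 31.8 RPKM in Hdac3flox/flox and at 23.9 and 24.0 RPKM in Hdac3cKO. The groups were well apart, and the log2 fold change was −0.42 (SE 0.032, adjusted p = 0.00686 from limma). Pecam1, which encodes the adhesion molecule CD31, stood at 12.5 RPKM in each control and at 9.41 and 9.63 RPKM in Hdac3cKO. The log2 fold change of Pecam1 was −0.39 (SE 0.042, adjusted p = 0.011), close to that of Cdh5. Cldn5, which encodes the claudin of endothelial tight junctions and lies on chromosome 16 of GRCm38 from 18776847 to 18778262, was at 16.1 and 16.0 RPKM in Hdac3flox/flox and at 9.08 and 9.23 RPKM in Hdac3cKO. It fell the most of all vessel markers, with a log2 fold change of −0.80 (SE 0.039, adjusted p = 0.00373). Mmrn2, an extracellular matrix protein of endothelium that binds CD93, fell from 6.80 and 6.72 RPKM to 3.80 and 4.18 RPKM (log2 fold change −0.75, SE 0.072, adjusted p = 0.00935). Esam, an adhesion molecule of tight junctions, was at 14.0 and 13.0 RPKM in Hdac3flox/flox and at 10.0 and 9.28 RPKM in Hdac3cKO (log2 fold change −0.48, adjusted p = 0.0167). Cd93, a surface receptor for matrix, had a smaller change, from 13.9 and 14.7 RPKM to 12.1 and 12.4 RPKM (log2 fold change −0.22, adjusted p = 0.0466), and was not called after median-of-ratios scaling (adjusted p = 0.0664).

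The other surface genes did not pass. Cd34, a sialomucin found on endothelium and on some stromal cells, was at 26.9 and 25.7 RPKM in Hdac3flox/flox and at 24.0 RPKM in both Hdac3cKO libraries (log2 fold change −0.13, adjusted p = 0.075). Plvap, which builds the diaphragms of fenestrated capillaries, was at 8.63 and 8.67 RPKM against 7.39 and 7.74 RPKM (log2 fold change −0.19, adjusted p = 0.0668). For both genes the groups did not overlap, as for 37.8% of all tested genes in the same direction. Emcn, which encodes the sialomucin endomucin, was at 4.10 and 4.28 RPKM against 3.50 and 3.93 RPKM (log2 fold change −0.17, adjusted p = 0.235). Icam2, a ligand for leukocyte integrins, and Ecscr, a regulator of endothelial migration, overlapped between the genotypes, with Icam2 at 5.16 and 4.04 RPKM against 4.04 and 4.14 RPKM and Ecscr at 3.93 and 3.28 RPKM against 3.42 and 3.07 RPKM. Their 95% intervals of the log2 fold change, from −0.50 to 0.19 for Icam2 and from −0.46 to 0.18 for Ecscr, include both the change of Cdh5 and 0.

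The receptor tyrosine kinases of endothelium did not move alike. Tie1 and Tek encode the angiopoietin receptors, Tek binding the ligands and Tie1 being its partner. Tie1 (chromosome 4, 118471191 to 118490061 on GRCm38) was at 10.9 RPKM in each control and at 6.30 and 6.96 RPKM in Hdac3cKO. Tek (chromosome 4, 94739289 to 94874976) was at 6.24 and 6.08 RPKM in Hdac3flox/flox and at 4.07 and 4.14 RPKM in Hdac3cKO. Both receptors were thus lower in each Hdac3cKO library than in either control, with log2 fold changes of −0.71 for Tie1 (SE 0.065, adjusted p = 0.00861) and −0.57 for Tek (SE 0.058, adjusted p = 0.01). Kdr (chromosome 5, 75932827 to 75978458), which encodes the main signalling receptor for VEGFA, was at 8.42 and 8.11 RPKM in Hdac3flox/flox and at 8.24 and 8.11 RPKM in Hdac3cKO. Flt1 (chromosome 5, 147561604 to 147726011), whose product binds VEGFA tightly and limits its signal, was at 3.53 and 3.42 RPKM against 3.29 and 3.27 RPKM. Neither was called (adjusted p = 0.856 for Kdr and 0.465 for Flt1), and the 95% interval of the log2 fold change was −0.15 to 0.12 for Kdr and −0.27 to 0.11 for Flt1. Neither interval reached the log2 fold change of Tek or of Cdh5. Flt4, which encodes the receptor for VEGFC and VEGFD and is abundant in lymphatic endothelium and in some fenestrated capillaries, fell from 4.51 and 4.42 RPKM to 3.29 and 3.50 RPKM (log2 fold change −0.38, adjusted p = 0.0321 from limma). Flt4 was not called with the replicate block (adjusted p = 0.062), with no filter (0.0706) or with any 1 library left out (0.102 to 0.124).

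To set these receptors against an endothelial gene of the same library, each was divided by Cdh5, a choice made after the values were seen. Per RPKM of Cdh5, Kdr was at 0.260 and 0.255 in Hdac3flox/flox and at 0.344 and 0.338 in Hdac3cKO. Flt1 was at 0.109 and 0.108 against 0.137 and 0.136 in the same way. Both genes thus made up more relative to Cdh5 in Hdac3cKO. Cdh5 itself fell (log2 fold change −0.42), and a marker that falls less rises relative to it. Most of the other tested vessel markers fell less than Cdh5 or did not fall. Eng, Sox18, Plvap and Cd34 are examples (−0.29, −0.21, −0.19 and −0.13), so a higher ratio is not particular to Kdr and Flt1. Tie1 went the other way, from 0.336 and 0.344 to 0.263 and 0.290, as did Cldn5, from 0.497 and 0.505 to 0.379 and 0.385. The ratio of Pecam1 to Cdh5 overlapped between the genotypes, at 0.387 and 0.394 in Hdac3flox/flox and 0.393 and 0.401 in Hdac3cKO. The ratio of Tek to Kdr fell by 32.6% between the group means, from 0.741 and 0.751 to 0.494 and 0.511. With 2 libraries per genotype an exact two-sided permutation test cannot give a p below 0.333, which is the value for each of these ratios except that of Pecam1 (p = 0.667 by the same exact test). The change of the ratios is therefore a description of these 4 libraries.

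**Figure D3:**
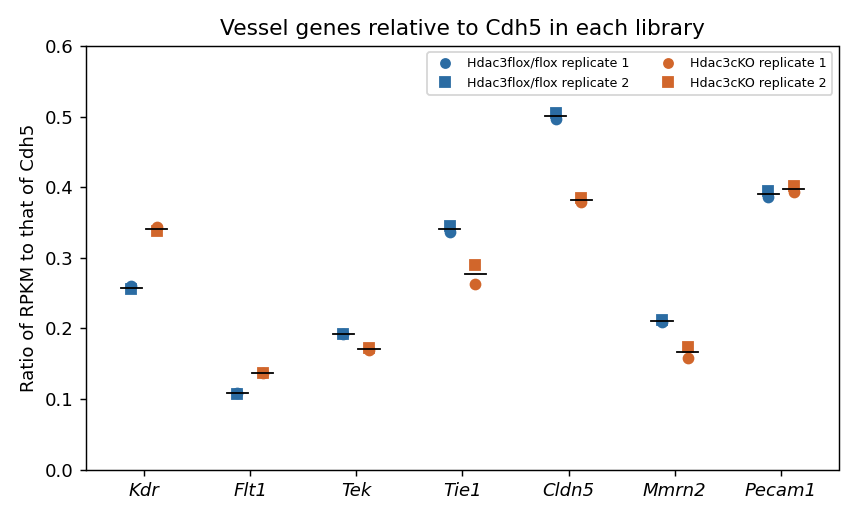
Level of 7 vessel genes divided by that of Cdh5 in the same library (ratio of RPKM, axis from 0). Points are libraries (blue Hdac3flox/flox, orange Hdac3cKO) and black bars the means of 2 libraries. The points of Kdr and Flt1 are higher in Hdac3cKO, those of Tie1, Cldn5, Mmrn2 and Tek are lower, and those of Pecam1 overlap. Most of the tested vessel markers fell less than Cdh5 or did not fall, and most of these, such as Eng, Sox18, Plvap and Cd34, are not shown.

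The sequences before the start sites of the genes that part here are printed from RefSeq (GRCm38.p6), 5′ to 3′, as the 250 bases that end at a RefSeq start. For each gene 1 start was taken, and any other start is not printed. The start used for Tie1 lies inside the gene position given above, and so does most of its window. They are shown so that the genes that fell (Tie1, Tek and Cldn5) can be set beside those that were not called (Kdr and Flt1). Capitals mark every match, on either strand, to a short motif of a family of transcription factors. For ETS factors, such as ERG and FLI1, the motif AGGAAG was searched. A further motif searched for the same family of factors was CCGGAA. For the SOX factors the letters were AACAAT. For the GATA factors, which also act in endothelium, they were AGATAA. The core of the hypoxia response element was searched as ACGTG. Matches may overlap in principle, and a match is only a match of letters.
Tie1 (chr4:118489850-118490099, minus strand): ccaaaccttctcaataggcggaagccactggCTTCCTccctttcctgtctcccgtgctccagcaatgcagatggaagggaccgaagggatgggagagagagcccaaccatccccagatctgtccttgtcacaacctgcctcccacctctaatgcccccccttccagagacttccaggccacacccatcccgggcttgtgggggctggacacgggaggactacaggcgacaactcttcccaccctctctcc
Tek (chr4:94739039-94739288, plus strand): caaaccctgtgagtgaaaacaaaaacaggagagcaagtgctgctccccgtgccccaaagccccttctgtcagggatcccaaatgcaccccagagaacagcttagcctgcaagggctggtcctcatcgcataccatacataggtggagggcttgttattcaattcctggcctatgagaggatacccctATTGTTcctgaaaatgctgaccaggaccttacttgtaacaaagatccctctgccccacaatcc
Cldn5 (chr16:18776597-18776846, plus strand): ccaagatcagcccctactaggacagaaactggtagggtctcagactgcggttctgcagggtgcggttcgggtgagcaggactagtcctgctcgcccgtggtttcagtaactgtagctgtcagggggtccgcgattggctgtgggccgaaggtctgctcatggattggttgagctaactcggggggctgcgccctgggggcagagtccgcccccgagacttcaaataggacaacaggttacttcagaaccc
Kdr (chr5:75978456-75978705, minus strand): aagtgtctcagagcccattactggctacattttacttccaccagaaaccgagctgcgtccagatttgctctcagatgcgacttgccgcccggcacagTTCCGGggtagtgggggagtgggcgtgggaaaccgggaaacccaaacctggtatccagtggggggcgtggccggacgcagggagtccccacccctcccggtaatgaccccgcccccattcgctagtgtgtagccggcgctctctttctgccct
Flt1 (chr5:147726012-147726261, minus strand): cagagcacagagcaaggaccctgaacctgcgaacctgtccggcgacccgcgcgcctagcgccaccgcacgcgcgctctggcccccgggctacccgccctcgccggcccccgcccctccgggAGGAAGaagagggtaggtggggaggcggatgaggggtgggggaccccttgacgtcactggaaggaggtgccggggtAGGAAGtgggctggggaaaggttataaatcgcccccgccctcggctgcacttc

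In the printed windows, Tie1 has 1 match to AGGAAG, Tek 1 to AACAAT, Cldn5 no match to any of the motifs, Kdr 1 to CCGGAA and Flt1 2 to AGGAAG. Of the 17 members that have a window in the RefSeq table, 10 have AGGAAG or CCGGAA in at least 1 window, and these windows are 11 of 23, while 38.2% of all 32851 windows of the table hold one of the same motifs. AACAAT was found for Calcrl, Emcn, Erg and Tek (4 of 23 windows, and 9.42% of all windows), and ACGTG only for Vegfa (1 of 23 windows, and 16.6% of all windows). AGATAA was found for Erg and Vegfa (2 of 23 windows, and 9.99% of all windows).

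The remaining receptors and their modulators included further genes that fell. Eng, which encodes endoglin, a coreceptor for BMP9-type ligands and TGF-beta, was among the most abundant members at 33.2 RPKM in each control and 27.5 and 26.8 RPKM in Hdac3cKO (log2 fold change −0.29, SE 0.032, adjusted p = 0.0119). Ramp2, the partner that makes the calcitonin receptor-like receptor a receptor for adrenomedullin, fell from 9.38 and 9.20 RPKM to 6.14 and 6.24 RPKM (log2 fold change −0.58, SE 0.048, adjusted p = 0.00794). Calcrl, which encodes that receptor, was at 4.77 and 5.38 RPKM against 3.91 and 4.12 RPKM, with no overlap, and missed the threshold (log2 fold change −0.33, adjusted p = 0.066). Aplnr, the receptor of apelin, which marks veins and sprouting capillaries, fell from 17.2 and 15.5 RPKM to 11.7 and 11.8 RPKM (log2 fold change −0.48, adjusted p = 0.0156). Ptprb, the endothelial phosphatase that acts on TEK and VE-cadherin, was at 2.79 and 3.05 RPKM against 2.41 and 2.29 RPKM (log2 fold change −0.30, adjusted p = 0.0945). Of the exon bases annotated to Ramp2, 33.4% are also annotated to Vps25, which was below 0.5 RPKM in every library, so reads of the shared part may have been left out or assigned to either gene.

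Of the transcription factors of endothelium, Sox7 and Sox18 were called lower and Erg and Sox17 were lower without passing. Sox18, the most abundant of the members in Hdac3flox/flox, was at 42.5 and 42.3 RPKM there and at 37.6 and 35.8 RPKM in Hdac3cKO (log2 fold change −0.21, SE 0.036, adjusted p = 0.0293). Sox7 stood much lower, at 2.25 and 2.46 RPKM against 1.59 and 1.65 RPKM (log2 fold change −0.51, SE 0.108, adjusted p = 0.0412). Sox17, the related factor of arterial endothelium, was at 2.82 and 2.58 RPKM against 2.07 and 2.08 RPKM (log2 fold change −0.36, adjusted p = 0.0668). Erg, an ETS factor that maintains endothelial identity, was at 3.39 and 4.06 RPKM against 2.52 and 2.70 RPKM (log2 fold change −0.49, adjusted p = 0.0535). In all of these SOX and ETS genes both Hdac3cKO libraries were below both controls, as in 37.8% of all tested genes. Sox7 and Sox18 were not called once GC content and exon length had been regressed out (adjusted p = 0.0564 and 0.0897 from limma), and Erg and Sox17 were called with limma voom on recovered reads (adjusted p = 0.0116 and 0.0263).

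Among secreted proteins, Egfl7, an endothelial matrix protein whose gene also holds the microRNA miR-126, fell from 9.09 and 8.71 RPKM to 6.81 and 6.75 RPKM (log2 fold change −0.39, SE 0.051, adjusted p = 0.0163). Nos3, the endothelial nitric oxide synthase, was at 1.96 and 1.94 RPKM in Hdac3flox/flox and at 2.11 and 1.61 RPKM in Hdac3cKO, so that its Hdac3cKO libraries lay on both sides of the controls (adjusted p = 0.775). Of the exon bases of Nos3, 25.2% are also annotated to an antisense gene, and the sources do not state whether the counting used the strand. Vwf, which encodes von Willebrand factor, a clotting protein stored mainly by the endothelium of larger vessels, was barely read, with 60 and 76 reads in the controls against 101 and 87 in Hdac3cKO. Both Hdac3cKO libraries were above both controls, as in 26.7% of all tested genes, and the gene was not tested, with a ratio of summed reads, scaled to the library totals, of 1.40 (exact 95% interval 1.12 to 1.76, which covers counting error only).

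Markers of lymphatic endothelium gave no common direction. Lyve1, the hyaluronan receptor of lymphatic vessels that is also found on some macrophages, was at 4.86 and 4.22 RPKM in Hdac3flox/flox and at 4.34 and 6.40 RPKM in Hdac3cKO. The Hdac3cKO libraries thus differed from each other by more than the groups did, and the log2 fold change was 0.21 with Hdac3cKO replicate 2 and −0.06 without it. Prox1, the transcription factor that sets lymphatic identity, was read 55 and 50 times in the controls and 60 and 77 times in Hdac3cKO. The ratio of summed reads was 1.33, with an exact 95% interval of 1.02 to 1.73 that covers counting error only, not the variation between mice. Flt4 is described above.

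The ligands differed in direction. Vegfa (chromosome 17, 46016993 to 46032369 on GRCm38), the VEGF that drives the growth of capillaries, was the ligand with the highest level, at 39.3 and 39.5 RPKM in Hdac3flox/flox and 43.7 and 44.3 RPKM in Hdac3cKO. The rise was small and larger than the spread between replicates, with a log2 fold change of 0.16 (SE 0.028, 95% interval 0.08 to 0.23, adjusted p = 0.0302), against 7.68% of all tested genes called higher. With the replicate number as a block Vegfa was not called (adjusted p = 0.053 from limma). Vegfc (chromosome 8, 54077606 to 54187096), the ligand of FLT4, fell from 4.46 and 4.81 RPKM to 3.01 and 2.69 RPKM (log2 fold change −0.68, SE 0.092, adjusted p = 0.017).

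Both angiopoietins fell. Angpt2 (chromosome 8, 18690263 to 18741562), which loosens vessels and is made mainly by endothelium itself, was at 3.97 and 3.55 RPKM in Hdac3flox/flox and at 1.92 RPKM in both Hdac3cKO libraries. The log2 fold change was −0.93 (SE 0.096, adjusted p = 0.0105), the largest of the 34 tested members with a pseudocount of 0.1, whereas with a pseudocount of 1 Angpt2 was at −0.70 and Cldn5 at −0.75. Its summed reads were 508 in Hdac3flox/flox and 256 in Hdac3cKO, a scaled ratio of 0.512 (exact 95% interval 0.439 to 0.596, which covers counting error only). Angpt1 (chromosome 15, 42424723 to 42676977), which comes from mural and stromal cells and keeps vessels stable through TEK, was at 3.90 and 3.61 RPKM against 2.60 and 2.19 RPKM (log2 fold change −0.63, SE 0.115, adjusted p = 0.0306). The ratio of Angpt2 to Angpt1 was 1.02 and 0.982 in Hdac3flox/flox and 0.741 and 0.879 in Hdac3cKO. Relative to the receptor Tek, Angpt2 was at 0.636 and 0.583 against 0.473 and 0.464.

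The last ligands did not pass. Dll4, the Notch ligand of endothelial tip cells and arteries, was at 2.59 and 2.55 RPKM in Hdac3flox/flox and at 2.15 and 2.20 RPKM in Hdac3cKO (log2 fold change −0.23, adjusted p = 0.139). Apln, which encodes apelin, was at 4.91 and 4.34 RPKM against 5.97 and 4.96 RPKM (log2 fold change 0.23, adjusted p = 0.24). The groups of Apln were separated only narrowly, as its lower Hdac3cKO library lay just above the higher control, while its receptor gene Aplnr fell.

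Other genes of vessels and of angiogenic signalling were counted from a list of 73 genes that are not among the members, of which 67 were tested. On this list 23 were called lower and 3 higher, beside 11.0% and 7.68% of all tested genes, and the median log2 fold change was −0.21. The called genes with the smallest p in the lower direction were Ldb2, a cofactor of LIM-domain proteins, Clec14a, an endothelial lectin that binds MMRN2, Vegfd, the other ligand of FLT4, and Plxnd1, a semaphorin receptor. Clec14a was at 8.75 and 9.11 RPKM in Hdac3flox/flox and at 4.99 and 5.62 RPKM in Hdac3cKO (log2 fold change −0.74, SE 0.077, adjusted p = 0.0105). Vegfd was at 17.2 and 17.6 RPKM against 9.66 and 11.2 RPKM (log2 fold change −0.74, SE 0.082, adjusted p = 0.0119). With no filter neither Vegfd nor Vegfc was called (adjusted p = 0.0504 and 0.0548 from limma). Ldb2 changed by −0.55 (adjusted p = 0.00989 from limma) and Plxnd1 by −0.31 (adjusted p = 0.012) on the log2 scale. The 3 genes called higher by limma were Egln3, Egln1 and Bmper, and limma voom called 7 higher. Egln3 and Egln1 encode prolyl hydroxylases that mark hypoxia-inducible factors for destruction, and Bmper encodes a secreted protein that binds BMPs. Egln1, at 15.8 and 15.9 RPKM against 17.8 and 19.0 RPKM, rose by little (log2 fold change 0.21, adjusted p = 0.0448), and Egln3 and Bmper had log2 fold changes of 1.80 and 1.70 (adjusted p = 0.00354 and 0.005).

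Within this list, the subsets followed the members in part. Over all tested genes 11.0% were called lower and 7.68% higher. Of 6 tested genes of the VEGF family, its coreceptors and related receptors, 3 were lower, among them Nrp2, a coreceptor for VEGFC, at 5.40 and 5.48 RPKM against 4.11 and 4.25 RPKM, while Vegfb was not called at 23.6 and 22.7 RPKM against 24.1 and 24.4 RPKM. Of 6 genes of inhibitors of angiogenesis, 3 were lower, namely Thbs1, Thbs2 and Adamts1 (log2 fold changes −0.32, −0.42 and −0.30). Of 6 genes of hypoxia factors upstream of VEGF, 1 was called lower and 2, Egln3 and Egln1, were called higher. The lower one was Epas1, which encodes the HIF subunit enriched in endothelium (log2 fold change −0.38, adjusted p = 0.0129 from limma). Hif1a was at 55.0 and 52.7 RPKM against 59.4 and 59.0 RPKM and was not called (adjusted p = 0.0569). Of 4 TGF-beta and BMP genes of endothelium, 2 were called lower and 1, Bmper, higher. Of 9 Notch and ephrin genes 3 were called lower, and of 10 tested other endothelial transcription factors 2 were. Neither of the 2 sphingosine and adrenomedullin genes was called. Of 24 tested genes of the endothelial surface and signalling, 9 were lower, among them Cav1 of caveolae (log2 fold change −0.49) and Vcam1, a leukocyte adhesion molecule (log2 fold change −0.65). None of the 24 was called higher by limma, while 3 were higher at an unadjusted p under 0.05 and limma voom called 2 higher. Procr, the endothelial receptor of protein C, had the highest estimate, at 4.36 and 3.35 RPKM against 5.58 and 4.75 RPKM (log2 fold change 0.42, adjusted p = 0.135 from limma). Podxl and Adgrf5 had log2 fold changes of 0.02 and 0.05. These genes, other than the 7 with the smallest p, were named after their values were seen.

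Markers of the other cells of the ovary moved in the same libraries, and their part in the values of the vessel genes was not tested. Their counts stand beside 11.0% of all tested genes called lower and 7.68% called higher. The 30 vessel markers summed to 313 and 307 RPKM in Hdac3flox/flox and to 245 and 247 RPKM in Hdac3cKO, with no overlap. Of 9 tested genes of pericytes and smooth muscle, the cells that wrap vessels, 4 were lower and none was higher by limma (1 higher at an unadjusted p under 0.05, and 1 by limma voom), and the sum of the list was 474 and 465 RPKM against 331 and 381 RPKM. Most of this sum was Acta2, the actin of smooth muscle, at 377 and 370 RPKM against 265 and 308 RPKM. Pdgfrb, the receptor that draws pericytes to vessels, fell from 16.8 and 16.2 RPKM to 11.8 and 11.7 RPKM (log2 fold change −0.49, adjusted p = 0.00786), and Rgs5, a pericyte regulator of G proteins, from 20.1 and 19.5 RPKM to 12.5 and 13.6 RPKM (log2 fold change −0.60, adjusted p = 0.00843). Acta2 fell with them (log2 fold change −0.39, adjusted p = 0.0374). Among 7 stromal and fibroblast genes, 4 were called lower and none higher by limma (0 higher at an unadjusted p under 0.05, and 1 by limma voom). For 2 of the 7 both Hdac3cKO libraries were above both controls, as for 26.7% of all tested genes. The sum of the list was 594 and 590 RPKM against 536 and 551 RPKM. Of 6 theca genes 3 were lower and 1 was higher, with a sum of 1119 and 1025 RPKM against 936 and 846 RPKM. Cyp17a1 and Insl3 were among those that fell (log2 fold changes −0.47 and −1.20), while the highest estimate of the list was 0.26. Insl3 was barely read, with 24 and 23 reads in Hdac3flox/flox against 8 and 11 in Hdac3cKO.

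Blood and leukocyte genes were not called. None of the 5 genes of red blood cells was called by limma (0 at an unadjusted p under 0.05, and 0 by limma voom), their sum was 148 and 139 RPKM in Hdac3flox/flox and 140 and 136 RPKM in Hdac3cKO, and Hbb-bs, the most abundant of them, was at 69.5 and 68.3 RPKM against 66.8 and 61.9 RPKM. None of the 5 tested leukocyte genes was called by limma (1 at an unadjusted p under 0.05, lower, and 0 by limma voom), with a sum over the list of 30.3 and 29.9 RPKM against 29.6 and 26.1 RPKM. Ptprc, which encodes the common leukocyte antigen, was at or below 0.175 RPKM in every library. Genes of follicle cells made up the last lists, beside 7.68% of all tested genes called higher and 11.0% called lower. Of 9 GC genes 5 were higher and 2, Foxl2 and Fshr, were lower, with a sum of 7848 and 7430 RPKM against 9266 and 8887 RPKM. Of 8 oocyte genes 1 was higher and none was lower by limma (1 lower at an unadjusted p under 0.05, and 1 by limma voom), with a sum of 197 and 198 RPKM against 239 and 213 RPKM. Median-of-ratios scaling moved the log2 fold changes of the called members by at most 0.04, and 14 vessel markers were then still called lower.

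**Figure D4:**
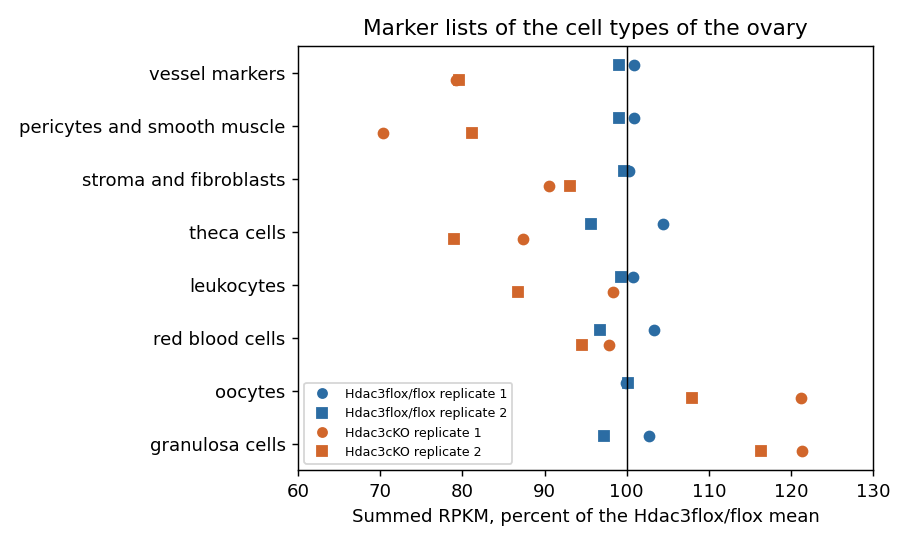
Summed RPKM of 8 marker lists in each library, as a percent of the mean of the Hdac3flox/flox libraries (vertical line at 100%, axis from 60 to 130). Vessel markers were at 79.2% and 79.6% in Hdac3cKO, pericyte and smooth muscle genes (mostly Acta2) at 70.4% and 81.2%, red blood cell genes at 97.9% and 94.6%, and GC genes at 121% and 116%. Of the 9 GC genes 5 were called higher, while Foxl2 and Fshr were called lower, against 7.68% and 11.0% of all tested genes.

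The size of the change was set against simple properties of the genes. Over the 28 tested vessel markers, Spearman's rho with the log2 fold change was −0.14 for the mean level, −0.28 for GC content of the transcripts and 0.21 for exon length, values that describe genes measured in the same 4 libraries. The 34 tested members lie on 16 chromosomes, with at most 7 on any of them. With GC content and exon length regressed out, 12 vessel markers were called lower, Cldn5 had a log2 fold change of −0.72 and Tie1 of −0.65, and the estimate of Kdr, −0.02 in the main values, was at 0.04.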

How the data were processed

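Total RNA of ovaries was made into Illumina TruSeq libraries, and Annoroad sequenced and processed them. Bowtie 0.12.2 and mm8 stand in the submitters' processing notes. No source used here names the counter or the gene models. The authors deposited RPKM values per gene symbol for 2 Hdac3flox/flox and 2 Hdac3cKO libraries, with no correction for composition between libraries. Columns were assigned by the replicate numbers in the labels. GENCODE M21 (GRCm38) matched 26771 of 28611 rows by symbol, and for 91.0% of these the annotated exon length turned the values into whole reads (relative tolerance 1e-10). This is at odds with mm8, so positions are given on GRCm38. Reads of other rows are the smallest whole numbers in the proportion of the values, and for Angpt1 true reads may be a multiple of these. Recovered reads served for read ratios with exact intervals (Clopper-Pearson, 95%) and for the voom alternative. Reads copied by PCR were not separated, so these intervals cover counting error alone.

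The levels were fitted with limma 3.58.1 in R 4.3.3 on log2(RPKM + 0.1) with a mean-variance trend and a single term for genotype, which leaves 2 residual degrees of freedom, over genes that reached 0.5 RPKM in 2 or more libraries, and two-sided p-values were adjusted by Benjamini-Hochberg over all 15528 tested genes. The design text gives 2 mice per group. Alternatives were the pseudocount, the filter, the scaling, voom, GC content with exon length (splines with 5 degrees of freedom), a block for the replicate number, and leaving out each library in turn. Members, gene lists and tests were chosen with earlier results of these data known. Every member was reported, together with up to 4 called genes in each direction of the list of other vessel genes and the defining genes of other cell types. Python 3.11.15, pandas 2.3.3 and scipy 1.17.1 were used for tables and matplotlib 3.10.9 for plots.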

Additional observations from a re-analysis of the deposited data

How the results depend on the processing

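Under the 8 alternatives that used all 4 libraries, the 19 called members kept their direction, and 10 of them (Angpt2, Cdh5, Cldn5, Egfl7, Eng, Mmrn2, Pecam1, Ramp2, Tek and Tie1) were called each time. With no filter, which adds genes near 0 to the adjustment, 9 vessel markers and 1 ligand were called lower and 0 ligands higher. On the same terms 544 of all genes were lower and 410 higher, 6 genes of the list of other vessel genes were lower, and 6 genes of other cell types were lower and 2 higher. With limma voom on recovered reads 2783 genes were lower and 1866 higher, with 7 of the other vessel genes higher. With GC content and exon length regressed out 1968 genes were higher, 6 of them other vessel genes, and with at least 1 RPKM in every library 5 other vessel genes were higher. The estimate of Kdr turned to 0.021 with median-of-ratios scaling and to 0.042 with GC content and exon length regressed out, which also turned Hbb-bs to 0.0099 (adjusted p over 0.05 in each case). The cause of these shifts was not tested.

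With each library left out in turn, the calls ranged from 0 to 9 for vessel markers lower, from 0 to 2 for ligands lower, were 0 for ligands higher each time, and ranged from 0 to 7 lower and 0 to 2 higher for other vessel genes. They ranged from 0 to 6 lower and 0 to 4 higher for other cell types, and from 2 to 616 lower and 2 to 531 higher over all genes. The log2 fold change then ran from −0.33 to 0.019 for Icam2, from −0.042 to 0.012 for Kdr, from −0.059 to 0.49 for Lyve1 and from −0.26 to 0.11 for Nos3. The lone library of a genotype is then assumed to vary like the pair of the other.

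The labels number the mice 1 and 2 in each genotype and do not say that a number was shared. Deviations of same-numbered libraries correlated at 0.08, and with the replicate block 12 vessel markers and 3 ligands were called lower, 0 ligands higher, and 1252 of all genes lower and 891 higher. With 2 libraries per genotype, only changes well above the spread between replicates can pass, and Vwf and Prox1 had too few reads to pass the filter.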
